A study of Danio rerio with 8 samples.

Results

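The Piwi genes piwil1 (ziwi, ENSDARG00000041699) and piwil2 (zili, ENSDARG00000062601) were followed through low-input RNA-seq libraries of zebrafish primordial germ cells (PGCs) and somatic cells. They were taken by their Ensembl gene IDs and not by a cut on their values, but with earlier results of these data known. The study names both among germline markers with conserved expression in PGCs. It drew these from genes it called higher in PGCs at 2 or more consecutive stages, with stages beyond those read here. Its cuts on adjusted p and log2 fold change were those used here. The libraries read here are from additional, deeper sequencing at 24 and 7 hpf that the study made for its splicing work. Whether its calls drew on these reads, and which edgeR test it used, is not stated, so the calls need not match. In the edgeR fit reported here neither gene was called between cell types at 24 or 7 hpf. They are 2 of the 34381 genes in the tables. Embryos carried the kop-EGFP-F-nos3'UTR transgene, in which a germline-active promoter and the nanos3 untranslated region restrict membrane-bound EGFP to PGCs, and the study's methods add a cry:dsred cassette to the name of the line. Cells were separated by fluorescence-activated cell sorting at 24 hours post fertilisation (hpf, pharyngula) and at 7 hpf (gastrula). The 4 groups were PGC 24 hpf, soma 24 hpf, PGC 7 hpf and soma 7 hpf, with 2 replicate libraries each and 8 in all. All 4 groups came from the same transgenic line, the labels name no mutation or treatment, and the somatic group was a mixture of whatever cell types the embryo held outside the EGFP gate. The study describes the replicates as biologically independent.

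Piwi proteins are the germline branch of the Argonaute family. They are guided by Piwi-interacting RNAs (piRNAs), short RNAs made largely from transposon transcripts, and they cleave or silence matching transposon RNA. In zebrafish gonads Ziwi mostly carries piRNAs antisense to transposons and Zili mostly sense ones, and each protein's cuts supply guides for the other in the ping-pong cycle. Loss of Ziwi leads to death of germ cells, and loss of Zili blocks their differentiation. Both proteins and their transcripts are also laid down in the egg by the mother, so that an early embryo can hold Piwi RNA that its own genome did not make.

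Libraries held between 6997561 and 21073240 expected counts, the estimated number of reads that the authors' software assigned to genes. The counts of piwil1 and piwil2 were exactly whole in 8 of 8 libraries as printed in the table, as were those of 90.2% of all IDs. Of the 34381 genes, 19885 passed the filter on low counts and were tested, both Piwi genes among them. The sorts were checked on 5 PGC markers, namely nanos3 and dnd1 (RNA-binding proteins needed for PGC survival), ddx4, tdrd7a and dazl. All 5 were higher in PGCs at 7 hpf, and 4 of 5 at 24 hpf, where dazl had a log2 fold change of 5.51 (edgeR, adjusted p = 0.296). Of all tested genes, 3.61% were called higher in PGCs at 7 hpf and 0.0302% at 24 hpf. Of 5 somatic markers (myod1 of muscle, krt4 of the enveloping layer, tbxta of the notochord, sox3 of neural tissue and the haemoglobin gene hbae1.1), 1 was lower in PGCs at 7 hpf (sox3) and 0 at 24 hpf. Of all tested genes, 1.83% were called lower in PGCs at 7 hpf and 0 at 24 hpf, so the 24 hpf result does not set these markers apart. The summed level of these 5 somatic markers was 2611 and 6569 CPM (counts scaled to library size) in the PGC 24 hpf libraries, against 6962 and 7436 CPM in the soma 24 hpf libraries. At 7 hpf the same sum was 3152 and 1719 CPM in PGC libraries, against 876 and 1101 CPM in soma libraries, and hbae1.1 was at 0 in all 4. Most of the 24 hpf sums was krt4, with 2420 and 6372 CPM in PGCs and 6762 and 7254 CPM in soma. Of the other markers at 24 hpf, myod1 had 51 and 91.7 CPM in PGCs and 42.5 and 47.8 CPM in soma, sox3 103 and 76.9 CPM in PGCs and 109 and 95.5 CPM in soma, tbxta 32.6 and 28.2 CPM in PGCs and 35.8 and 33.1 CPM in soma, and hbae1.1 4.65 and 0 CPM in PGCs and 12.8 and 5.76 CPM in soma. At 7 hpf krt4 averaged 2152 CPM in PGCs and 452 CPM in soma, and tbxta 245 and 353 CPM. There sox3 averaged 38.5 CPM in PGCs and 180 CPM in soma, and myod1 0.744 and 3.10 CPM. The PGC libraries thus held RNA of somatic markers at both stages, with those of muscle, neural tissue and notochord among them at 24 hpf. The study estimated a high purity of its sorted PGCs and reported strong enrichment of PGC markers in them. How the somatic marker values relate to that estimate was not tested, nor was the part they have in the Piwi values.

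The levels of piwil1 were lowest in soma at 24 hpf and highest at 7 hpf. Its expected counts were 171 and 153 in PGC 24 hpf, 46 and 15 in soma 24 hpf, 576 and 261 in PGC 7 hpf, and 461 and 96 in soma 7 hpf. Scaled to library size with TMM factors, which correct for differences in RNA composition, these were 9.03 and 9.27 CPM in PGC 24 hpf, 3.05 and 1.03 CPM in soma 24 hpf, 41.8 and 26.9 CPM in PGC 7 hpf, and 34.5 and 8.95 CPM in soma 7 hpf. Mean levels were ordered PGC 7 hpf (34.3 ± 10.5 CPM), soma 7 hpf (21.7 ± 18.1), PGC 24 hpf (9.15 ± 0.171) and soma 24 hpf (2.04 ± 1.43), each with SD and n = 2. Neighbours overlapped among the first 3 groups in this order, since the second soma 7 hpf library lay below both PGC 24 hpf libraries. The soma 24 hpf libraries lay below the other 6.

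The levels of piwil2 followed the same order of group means. Its expected counts were 159 and 168 in PGC 24 hpf, 5 and 20 in soma 24 hpf, 286 and 217 in PGC 7 hpf, and 213 and 42 in soma 7 hpf. The count of 5 had a Poisson interval at the 95% level of 1.62 to 11.7, and the count of 20 one of 12.2 to 30.9, which cover counting error only. The scaled levels were 8.4 and 10.2 CPM in PGC 24 hpf, 0.331 and 1.37 CPM in soma 24 hpf, 20.7 and 22.4 CPM in PGC 7 hpf, and 15.9 and 3.91 CPM in soma 7 hpf. As with piwil1, the soma 24 hpf libraries were below the other 6, and soma 7 hpf overlapped PGC 24 hpf, because its second library lay below both of them. PGC 7 hpf was above all other libraries.

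**Figure D1:**
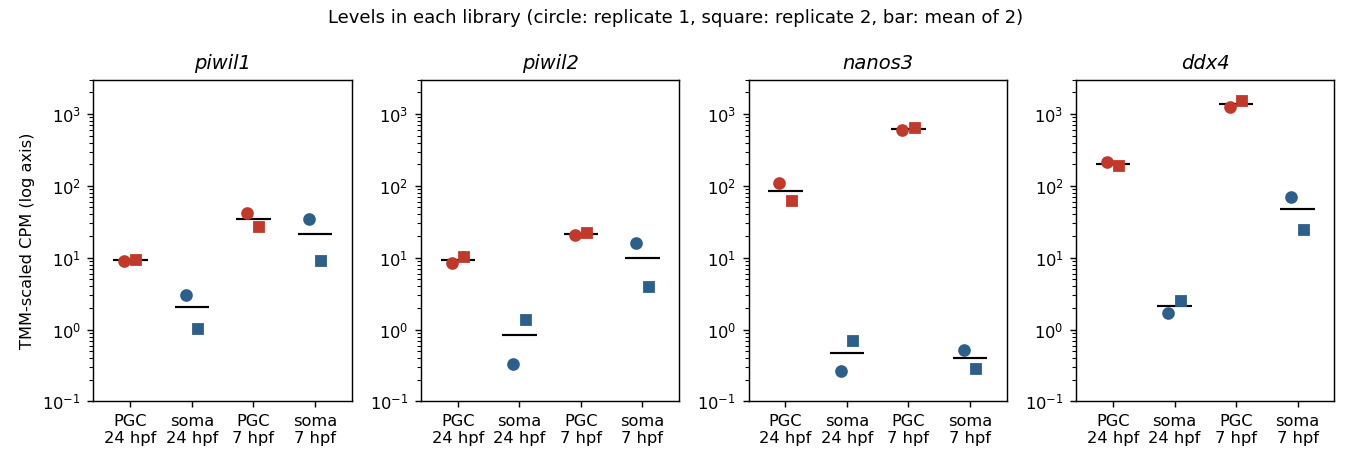
TMM-scaled CPM (log axis) of piwil1, piwil2, nanos3 and ddx4 in each of the 8 libraries, by group (circles, replicate 1; squares, replicate 2; bars, mean of 2). The Piwi genes reached 8.95 to 34.5 CPM (piwil1) and 3.91 to 15.9 CPM (piwil2) in soma at 7 hpf, where nanos3 stayed at or under 0.524 CPM.

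Each Piwi gene was set against the genes detected in the same library. The scale was the deposited transcript abundance (TPM), in which counts are divided by transcript length. Genes without any TPM in a library were left out of its shares, so these are not shares of all 34381 genes. In PGC 24 hpf piwil1 stood above 52.5% and 55.7% of the detected genes, and in soma 24 hpf above 26.1% and 11.6%. It stood above 81.1% and 74.1% in PGC 7 hpf and above 74.1% and 57.8% in soma 7 hpf. For piwil2 the shares were 50.5% and 47.0% in PGC 24 hpf, 19.0% and 14.1% in soma 24 hpf, 60.2% and 64.6% in PGC 7 hpf, and 66.8% and 30.5% in soma 7 hpf. The lowest shares of both genes were those of soma 24 hpf, and the next lowest for piwil2 was the second soma 7 hpf library.

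The spread between replicates was larger in soma than in PGCs for both genes. In PGC 24 hpf the first replicate differed from the second by -0.04 (piwil1) and -0.27 (piwil2) in log2 CPM, and in PGC 7 hpf by 0.63 and -0.11. They were compared with those of the 13113 genes that averaged 50 counts or more over all 8 libraries. In PGC 24 hpf the size of the difference was larger than in 6.41% (piwil1) and 44.2% (piwil2) of these genes, and in PGC 7 hpf than in 61.2% and 15.4%. In soma 24 hpf the differences were 1.44 for piwil1 and -1.68 for piwil2, larger in size than those of 92.2% and 94.3% of these genes. There piwil1 had only 46 and 15 counts and piwil2 5 and 20, and the part that counting error has in these differences was not tested. In soma 7 hpf they were 1.93 and 1.99, larger than those of 90.5% and 91.0% of these genes. In the second soma 7 hpf library both Piwi genes were therefore low together, while in soma 24 hpf the libraries differed in opposite directions for piwil1 and piwil2.

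Levels in soma were first compared between the stages. Both Piwi genes fell in soma, piwil1 to 2.04 ± 1.43 CPM at 24 hpf against 21.7 ± 18.1 CPM at 7 hpf, and piwil2 to 0.852 ± 0.736 CPM at 24 hpf against 9.93 ± 8.50 CPM at 7 hpf (SD, n = 2 each). In edgeR's quasi-likelihood test on all 8 libraries, piwil1 was 10.6-fold lower, with a log2 fold change of -3.41 (SE 0.735, 95% interval -5.07 to -1.75, adjusted p = 0.00642). piwil2 was 11.6-fold lower, with a log2 fold change of -3.54 (SE 0.823, interval -5.40 to -1.68, adjusted p = 0.00896). Both passed the threshold used throughout, which asked for an adjusted p under 0.05 together with a log2 fold change of 1.5 or more in size. In this comparison 9.89% of the tested genes were lower by the same rule, 23.2% were higher, and 33.1% passed in either direction. For both genes the 24 hpf libraries lay below the 7 hpf libraries without overlap, as they did for 29.5% of tested genes. In an edgeR fit of the 4 soma libraries alone both passed with larger standard errors. There piwil1 was at -3.32 (SE 0.867, adjusted p = 0.0281) and piwil2 at -3.43 (SE 1.08, adjusted p = 0.0478). The size rested on the first soma 7 hpf library more than on others: without it the log2 fold changes were -2.12 for piwil1 and -2.19 for piwil2 (edgeR). On deposited TPM in place of counts, piwil2 no longer passed (-1.37 on the log2(TPM + 1) scale, limma, adjusted p = 0.0837), while piwil1 did with the same filter on low values. With TPM rescaled without genes under 200 bases, a setting added after seeing the data, both passed. There piwil1 was -3.37 (limma, adjusted p = 0.000823) and piwil2 -2.19 (adjusted p = 0.0277).

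In PGCs the change between the stages did not pass the threshold for either gene. The level of piwil1 was 9.15 ± 0.171 CPM at 24 hpf against 34.3 ± 10.5 CPM at 7 hpf (SD, n = 2 each), and its log2 fold change was -1.91 (SE 0.676, interval -3.44 to -0.38, edgeR, adjusted p = 0.0561). The level of piwil2 was 9.29 ± 1.26 CPM at 24 hpf against 21.6 ± 1.14 CPM at 7 hpf, with a log2 fold change of -1.21 (SE 0.720, interval -2.84 to 0.41, edgeR, adjusted p = 0.220). The 24 hpf libraries lay below the 7 hpf libraries for both genes, as for 29.7% of tested genes, and 6.94% of genes were called lower, 19.5% higher and 26.5% in either direction. The call for piwil1 turned on the test: it was past the threshold with DESeq2 (log2 fold change -1.86, adjusted p = 0.0221) and in an edgeR fit of the 4 PGC libraries alone (-1.92, adjusted p = 0.00757). In that 4-library fit piwil2 was at -1.22 (SE 0.368, edgeR, adjusted p = 0.0342), so there it missed only the cut on fold change. These are bulk libraries, so fewer PGCs among the sorted cells and less Piwi RNA per PGC cannot be told apart. Per 1000 counts of the 5 PGC markers, piwil1 had 14.8 and 19.6 counts in PGC 24 hpf, against 9.71 and 4.44 in PGC 7 hpf, and piwil2 had 13.7 and 21.5, against 4.82 and 3.69. On that scale both genes were higher at 24 hpf, as were 91.3% of tested genes, since the markers themselves were lower: 4 of the 5 fell in PGCs between the stages.

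Cell types were then compared at each stage. At 24 hpf, piwil1 was at 9.15 ± 0.171 CPM in PGCs and 2.04 ± 1.43 CPM in soma, and piwil2 at 9.29 ± 1.26 CPM in PGCs and 0.852 ± 0.736 CPM in soma (SD, n = 2 each). Every PGC library was above both soma libraries for both genes, as for 19.2% of tested genes. The log2 fold change was 2.16 for piwil1 (SE 0.708, interval 0.56 to 3.76) and 3.44 for piwil2 (SE 0.820, interval 1.58 to 5.29). Neither passed after adjustment over all genes (edgeR, unadjusted p = 0.0137 and adjusted p = 1 for piwil1, unadjusted p = 0.00231 and adjusted p = 0.730 for piwil2). At this stage 0.0302% of the tested genes, 6 genes, were called higher in PGCs and 0 lower. With DESeq2, piwil2 passed (log2 fold change 3.41, adjusted p = 0.00815) and piwil1 did not (2.14, adjusted p = 0.307), and without a count filter both passed in edgeR (adjusted p = 0.0376 for piwil1 and 0.000763 for piwil2).

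At 7 hpf the Piwi genes were not called between cell types. The level of piwil1 was 34.3 ± 10.5 CPM in PGCs and 21.7 ± 18.1 CPM in soma, a log2 fold change of 0.66 (SE 0.655, interval -0.82 to 2.14, edgeR, adjusted p = 0.575). That of piwil2 was 21.6 ± 1.14 CPM in PGCs and 9.93 ± 8.50 CPM in soma, a log2 fold change of 1.11 (SE 0.720, interval -0.52 to 2.74, edgeR, adjusted p = 0.361). The intervals allow a PGC level up to 4.41-fold (piwil1) or 6.69-fold (piwil2) that of soma. The PGC and soma libraries overlapped for piwil1 and did not for piwil2, where both PGC libraries were above both soma libraries, as for 23.8% of tested genes. By comparison, 3.61% of tested genes were called higher in PGCs at this stage, 1.83% lower and 5.44% in either direction. The value of piwil1 rested on a single soma library, since its log2 fold change was -0.00797 without the second soma 7 hpf library and 1.94 without the first (edgeR). For piwil2 these were 0.43 and 2.46.

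Whether the difference between cell types itself changed with stage was tested as an interaction. The log2 difference between PGC and soma was larger at 24 hpf than at 7 hpf by 1.5 for piwil1 (SE 0.950, interval -0.65 to 3.65, edgeR, adjusted p = 0.491) and by 2.32 for piwil2 (SE 1.06, interval -0.07 to 4.72, adjusted p = 0.347). Neither passed, and 0.00503% of tested genes, 1 gene, did in either direction. The fall of both genes in soma and the lack of a call in PGCs are thus not shown to differ.

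**Figure D2:**
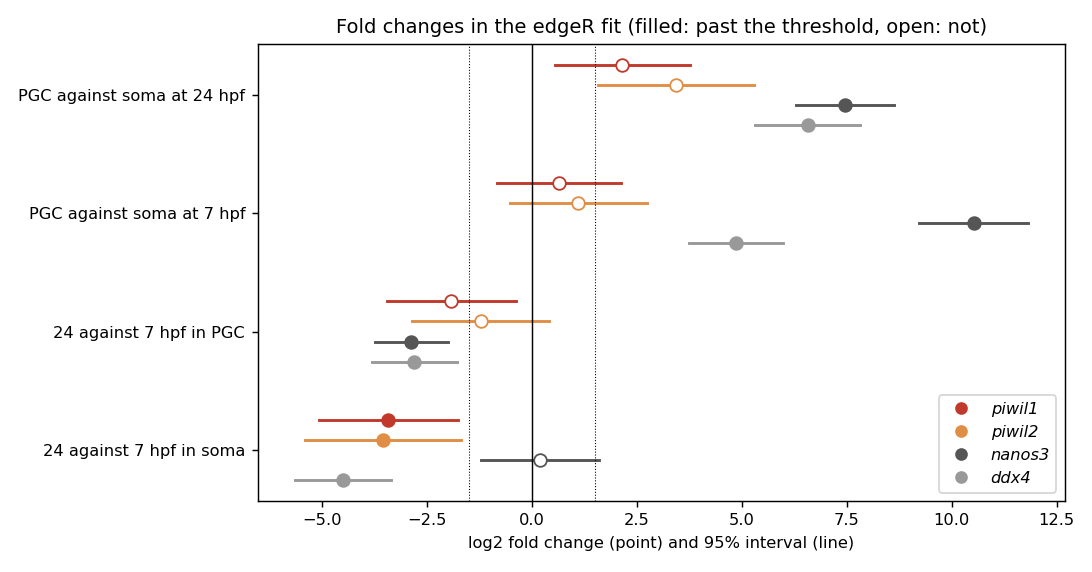
log2 fold changes (points) with 95% intervals (lines) of piwil1, piwil2, nanos3 and ddx4 in 4 comparisons of the edgeR fit, filled where past the threshold and open where not, with dotted lines at -1.5 and 1.5. Both Piwi genes were called in the soma comparison between stages (-3.41 and -3.54), as was ddx4. In that comparison nanos3 had a log2 fold change of 0.20, from mean counts of 5 at 7 hpf and 7 at 24 hpf, which left little room for a fall.

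Piwi RNA in the soma libraries was set beside that of the PGC markers. At 7 hpf the mean CPM in soma was 63.3% of that in PGCs for piwil1 and 46.1% for piwil2, but 0.0650% for nanos3, 0.110% for dnd1, 0.201% for tdrd7a, 0.718% for dazl and 3.44% for ddx4. The nanos3 counts were 8217 and 6207 in PGC 7 hpf, against 7 and 3 in soma 7 hpf. nanos3, dnd1 and dazl thus had 0 to 13 counts in soma at the stage when the Piwi genes had 42 to 461 counts there. The markers tdrd7a and ddx4 were not as low: tdrd7a averaged 59.5 counts in soma 7 hpf, and ddx4 had 941 and 264. At 24 hpf the soma mean was 22.3% of the PGC mean for piwil1 and 9.17% for piwil2, against 0.560% for nanos3, 1.55% for dnd1, 1.18% for tdrd7a, 2.16% for dazl and 1.05% for ddx4. The summed level of the 5 PGC markers was 611 and 472 CPM in PGC 24 hpf, 3.11 and 8.92 CPM in soma 24 hpf, 4304 and 6058 CPM in PGC 7 hpf, and 77.5 and 30.6 CPM in soma 7 hpf. In soma 7 hpf most of that sum was ddx4, with 941 and 264 of 1036 and 328 marker counts.

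Piwi proteins act with a set of partners that was read from a list of 19 piRNA pathway genes, of which 17 had an ID, piwil1 and piwil2 included, and all 17 were tested. The study had listed 13 of the 17 as higher in PGCs, so their direction between cell types is not independent evidence. At 24 hpf, 2 of 17 were higher in PGCs and 0 lower, where 0.0302% of all tested genes were higher, and the median log2 fold change was 3.44, against 0.02 over all tested genes. These 2, ddx4 and tdrd7a, are also among the PGC markers used to check the sorts, and both were called at 7 hpf as well. At 7 hpf, 4 of 17 were higher in PGCs and 0 lower, where 3.61% of all genes were higher, with a median of 1.11, against 0.00 over all genes. Between the stages, 7 of 17 were lower at 24 hpf in PGCs, where 6.94% of all genes were lower (median -1.91, against 0.36 over all genes). In soma 9 of 17 were lower, where 9.89% of all genes were (median -3.10, against 0.46), and 0 were higher in either cell type. Without the Piwi genes the counts were 2, 4, 7 and 7 of 15, and the medians 3.46, 1.85, -2.07 and -2.21. The medians of all 17 were the values of piwil2 itself at 24 and 7 hpf, and of piwil1 in PGCs between the stages. The number at 24 hpf depended on the test, with 8 genes called by DESeq2 and 10 without a count filter, and DESeq2 also called 8 at 7 hpf. The calls over all genes moved as well. At 24 hpf DESeq2 called 51 higher and 30 lower of 34381 genes, and edgeR without a count filter 63 and 40 of 25923. At 7 hpf DESeq2 called 1556 higher and 708 lower of 34381.

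Of the germ granule genes of the list, ddx4 and tdrd7a were called between cell types at both stages. ddx4 (Vasa), an RNA helicase of germ granules, had 4025 and 3093 counts in PGCs, against 26 and 36 in soma at 24 hpf, a log2 fold change of 6.57 (edgeR, adjusted p = 0.00676). At 7 hpf it had 17294 and 14645 counts in PGCs, against 941 and 264 in soma, a log2 fold change of 4.86 (adjusted p = 0.00898). Like the Piwi genes, ddx4 fell in soma between the stages (log2 fold change -4.50, adjusted p = 0.000394), and it also fell in PGCs (-2.79, adjusted p = 0.0022). tdrd7a, a tudor protein of zebrafish germ granules, was higher in PGCs at 24 hpf (6.40, adjusted p = 0.0407) and at 7 hpf (8.96, adjusted p = 0.00544), and fell in PGCs (-3.72, adjusted p = 0.00265). In soma tdrd7a did not pass between the stages (-1.17, adjusted p = 0.166).

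Of the other tudor genes tdrd1, tdrd5, tdrd6, tdrd9, tdrd12 and rnf17, 2 fell in PGCs between the stages (6.94% of all tested genes) and 4 in soma (9.89%). tdrd1, a scaffold that brings Piwi proteins and piRNA precursors together in zebrafish, was higher in PGCs at 7 hpf (log2 fold change 3.69, edgeR, adjusted p = 0.0191) and fell in PGCs (-3.16, adjusted p = 0.0046) and in soma (-3.10, adjusted p = 0.00764). tdrd6, which organises germ plasm in zebrafish, had 10.2 and 9.88 CPM in PGC 24 hpf, 1.19 and 3.02 CPM in soma 24 hpf, 49.9 and 96.5 CPM in PGC 7 hpf, and 39.2 and 30.6 CPM in soma 7 hpf. It fell in PGCs (-2.86, adjusted p = 0.00284) and in soma (-4.05, adjusted p = 0.000726), and at 7 hpf it was not called between cell types (1.07, adjusted p = 0.177). Of the helicases tdrd9 and tdrd12, known in mouse to act in ping-pong amplification, tdrd9 had 16.6 and 11 CPM in PGC 24 hpf, 0.728 and 1.78 CPM in soma 24 hpf, 42.9 and 32.5 CPM in PGC 7 hpf, and 62.0 and 35.8 CPM in soma 7 hpf. tdrd9 fell in soma (-5.28, adjusted p = 0.000332), and in PGCs its change of -1.45 was under the fold threshold (adjusted p = 0.0401). tdrd12 fell in soma (-4.90, adjusted p = 0.00883), with a log2 fold change of 0.64 in PGCs (adjusted p = 0.622). tdrd5 and rnf17, tudor genes known from mouse spermatogenesis, passed in no comparison, with log2 fold changes between the stages of -2.07 and -1.59 in PGCs and -2.21 and -0.86 in soma.

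Of the processing and cofactor genes gpat2, asz1, pld6, gtsf1, henmt1, tdrkh and exd1, 3 fell in PGCs between the stages (6.94% of all tested genes) and 2 in soma (9.89%). gpat2, an acyltransferase of the outer mitochondrial membrane that takes part in piRNA production in mouse, had 73 and 140 counts in PGC 24 hpf, 0 and 0 in soma 24 hpf, 350 and 273 in PGC 7 hpf, and 289 and 111 in soma 7 hpf. It fell in soma (edgeR, adjusted p = 0.000419) and in PGCs (log2 fold change -2.12, adjusted p = 0.0238). A floor of 3 counts, set for counts of 0, is 0.199 and 0.206 CPM in the soma 24 hpf libraries. The upper limit of the 95% Poisson interval for a count of 0 is 3.69 counts. asz1, a mitochondria-anchored scaffold in mouse germ cells, was higher in PGCs at 7 hpf (6.27, adjusted p = 0.0217) and fell in PGCs (-3.08, adjusted p = 0.0368), with at most 5 counts in any soma library. pld6 (Zucchini in flies), the nuclease that cuts piRNA precursors, had at most 2 counts in any soma library and passed in no comparison. gtsf1, a small zinc-finger cofactor of Piwi proteins in fly and mouse, had 24.8 and 31.9 CPM in PGC 24 hpf, 9.73 and 16.5 CPM in soma 24 hpf, 196 and 131 CPM in PGC 7 hpf, and 214 and 127 CPM in soma 7 hpf. It fell in PGCs (-2.53, adjusted p = 0.00178) and in soma (-3.70, adjusted p = 0.000376), and at 7 hpf its log2 fold change between cell types was -0.06 (adjusted p = 0.989). henmt1, which methylates piRNA ends in zebrafish, tdrkh, needed for piRNA trimming in mouse, and exd1, a partner of tdrd12 in mouse, passed in no comparison.

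The list thus held genes that were called between cell types at 7 hpf (ddx4, tdrd1, tdrd7a and asz1) and genes with soma levels at 7 hpf of the same order as in PGCs. At 7 hpf the soma mean was 47.7% of the PGC mean for tdrd6, 59.7% for gpat2, 104% for gtsf1 and 130% for tdrd9, beside 63.3% for piwil1 and 46.1% for piwil2. At 24 hpf these shares were 20.9% for tdrd6, 0% for gpat2, 46.2% for gtsf1 and 9.08% for tdrd9, beside 22.3% for piwil1 and 9.17% for piwil2. tdrd6, gpat2, gtsf1 and tdrd9 were picked after their values were seen, and the other genes not called at 7 hpf were mixed. From 7 to 24 hpf the share fell for tdrd5 (19.7% to 17.6%) and pld6 (4.62% to 3.02%). It also fell for tdrd12 (158% to 3.26%) and henmt1 (178% to 35.7%). It rose for rnf17 (15.8% to 26.1%), tdrkh (27.6% to 65.0%) and exd1 (115% to 187%). The interaction was called for 0 of 17 pathway genes by edgeR, with 4 higher and 1 lower at an unadjusted p under 0.05, for 3 by DESeq2, and for 5 in edgeR without a count filter. Over all genes, the edgeR fit called 0.00503% of those tested. DESeq2 called 213 higher and 512 lower of 34381 genes, and edgeR without a count filter 364 and 622 of 25923. The share of all genes at an unadjusted p under 0.05 was not counted.

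**Figure D3:**
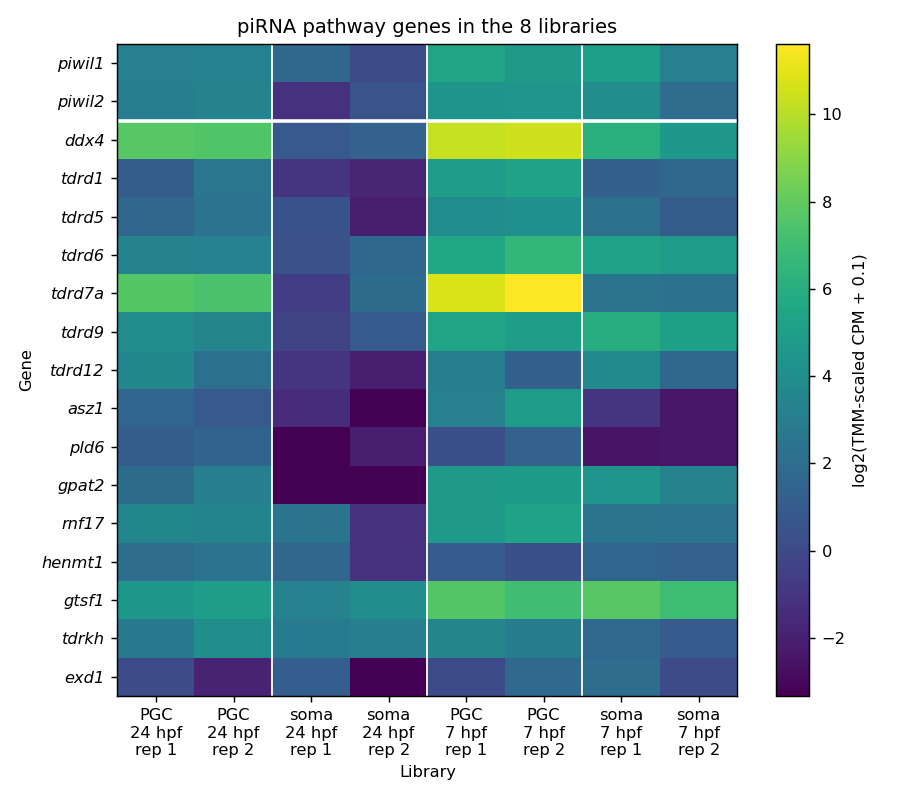
log2(TMM-scaled CPM + 0.1) of the 17 piRNA pathway genes (rows, the Piwi genes above the white line) in the 8 libraries (columns, by group and replicate). The Piwi genes, tdrd9 and gpat2 were darkest in the soma 24 hpf columns (0 and 0 counts for gpat2), whereas ddx4 and tdrd7a were brighter in PGC than in soma columns at both stages.

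The genes most like each Piwi gene across the 8 libraries were taken by Pearson's r of log2 CPM among 19884 other tested genes. The 8 libraries share 4 groups and a large difference between stages, so r is a description only. For piwil1 the 5 named genes with the highest r were fam169ab (0.985), tdrd6b (0.968), kank1 (0.962), pus7l (0.960) and znf1170 (0.959). For piwil2 they were zgc:103482 (0.979), dtx3lb.2 (0.973), si:ch211-214o13.1 (0.969), zgc:171566 (0.967) and rbm44 (0.967). piwil1 and piwil2 had an r of 0.862 with each other (rank 300 of 19884 for piwil1 and rank 134 for piwil2). Among pathway genes, the highest r with piwil1 were 0.929 for gpat2, 0.923 for tdrd5 and 0.877 for tdrd9, and the lowest -0.07 for tdrkh. With piwil2 the highest were 0.933 for ddx4, 0.930 for gpat2 and 0.897 for tdrd9, and the lowest 0.123 for tdrkh. Of the PGC markers, r with piwil1 was 0.843 for ddx4, 0.628 for tdrd7a, 0.549 for nanos3, 0.546 for dnd1 and 0.536 for dazl. With piwil2 it was 0.933 for ddx4, 0.802 for tdrd7a, 0.726 for dnd1, 0.708 for nanos3 and 0.685 for dazl.

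The balance of the Piwi genes was read as the ratio of piwil1 to piwil2 in TPM within each library. TPM of piwil1 was 1.8 and 1.62 in PGC 24 hpf, 0.62 and 0.14 in soma 24 hpf, 13.2 and 8.76 in PGC 7 hpf, and 10.04 and 2.68 in soma 7 hpf. TPM of piwil2 was 1.64 and 1.08 in PGC 24 hpf, 0.37 and 0.18 in soma 24 hpf, 4.11 and 5.32 in PGC 7 hpf, and 6.13 and 0.52 in soma 7 hpf. The ratio was 1.1 and 1.5 in PGC 24 hpf, 1.68 and 0.778 in soma 24 hpf, 3.22 and 1.65 in PGC 7 hpf, and 1.64 and 5.15 in soma 7 hpf. piwil1 was thus above piwil2 in 7 of 8 libraries on this scale. On expected counts, which are not divided by length, the ratio was 1.08 and 0.911 in PGC 24 hpf, 9.2 and 0.75 in soma 24 hpf, 2.01 and 1.2 in PGC 7 hpf, and 2.16 and 2.29 in soma 7 hpf, above 1 in 6 of 8. The mean log2 ratio, with 0.1 added to each TPM, was 0.76 in PGCs and 0.82 in soma, a difference of -0.05 (exact permutation test within stages, two-sided, p = 0.889, where the 36 arrangements allow no p below 0.0556). Its direction was not stable, and leaving out single libraries gave differences between -0.42 and 0.31.

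TPM rests on the effective length of each gene, which the authors' software averages over the isoforms of a gene, weighted by how abundant each is, and this length was not constant for the Piwi genes. For piwil1 it was 2226 and 1986 bases in PGC 24 hpf, 2819 and 3030 in soma 24 hpf, 1816 and 1985 in PGC 7 hpf, and 2299 and 1415 in soma 7 hpf. For piwil2 it was 2263 and 3263 bases in PGC 24 hpf, 508 and 3102 in soma 24 hpf, 2906 and 2717 in PGC 7 hpf, and 1740 and 3212 in soma 7 hpf. The 508 bases came from the library with 5 piwil2 counts. The largest length was 2.14 times the smallest for piwil1 and 6.43 times for piwil2. Without the library with the fewest counts these were 1.99 and 1.88 times. The Piwi genes fell to 15 and 5 counts in single libraries, so no test of length was run on them. The PGC libraries lay within the range of the soma libraries for piwil1, and 3 of 4 did for piwil2. The widest gaps between replicates were in soma for both genes.

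**Figure D4:**
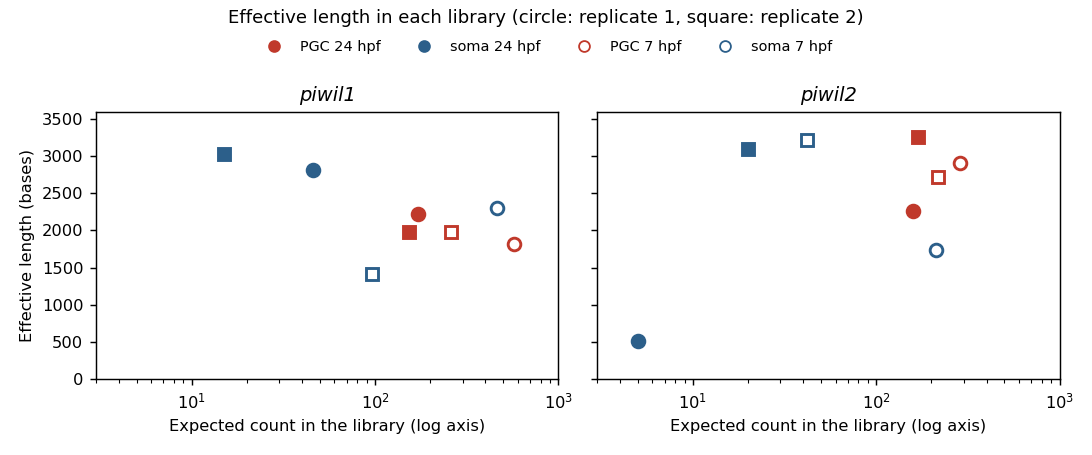
Effective length in bases of piwil1 and piwil2 against the expected count of the gene (log axis) in each of the 8 libraries (red, PGC; blue, soma; filled, 24 hpf; open, 7 hpf; circles, replicate 1; squares, replicate 2). The shortest value, 508 bases for piwil2, belongs to the library with 5 counts, and soma libraries spread over 1415 to 3030 bases for piwil1.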

How the data were processed

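The authors trimmed adapters with Trim Galore, mapped the reads to danRer10 (STAR) and estimated gene abundance (RSEM). The authors deposited 3 gene tables, of RSEM expected counts (estimated read counts per gene), of TPM (count over effective length, scaled to the same total in each library) and of effective lengths in bases. Replicates were not pooled. Whether lanes were merged and whether strand was used in counting is not stated in the sources used here. In the GRCz12tu RefSeq table no gene overlapped piwil1, and 1 long non-coding RNA gene, LOC141385781, overlapped piwil2, so that without strand its reads could count as piwil2.

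Rounded expected counts were tested with edgeR 4.0.16 under R 4.3.3 (filterByExpr, TMM, quasi-likelihood test, all 8 libraries with 4 group means). A gene was called with a Benjamini-Hochberg adjusted p under 0.05 over 19885 genes and a log2 fold change of 1.5 or more in size. The standard error is the log2 fold change over the root of F. Group and replicate were read from the titles. Symbols came from a reference table (26790 of 34381 IDs) and the study's supplementary lists. Named were the Piwi genes, a piRNA pathway list (mov10l1 and mael of it had no ID), a list of 11 other germline genes, 5 PGC and 5 somatic markers, and the 5 genes most like each Piwi gene with a symbol. The members and lists were chosen with earlier results of these data known. On simulated data for PGC against soma at 7 hpf, in which 200 of 19885 genes differed 3 on the log2 scale, the test called 52.5% of them, and at a difference of 1.5 it called 0%.

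Alternatives were RLE factors, DESeq2 1.42.0, no count filter, a mean of at least 50 counts, a replicate block, limma 3.58.1 on log2(TPM + 1) or log2(TPM + 0.1), a fit of a contrast's 4 libraries, and leaving out each library. TPM rescaled without genes under 200 bases was added after seeing the data, because 57.7% to 78.7% of TPM lay in such genes, as were the leave-one-out counts of the pathway list. Library totals ranged from 6997561 to 21073240, so that 3 counts, the floor set for a count of 0, were 0.158 to 0.309 CPM. Poisson intervals cover counting error only, and the intervals of fold changes come from the edgeR fit over libraries. Sequences and coordinates were not used here.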

Additional observations from a re-analysis of the deposited data

How the results depend on the processing

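With 2 libraries per group, the 178 alternative values of the piwil1 and piwil2 log2 fold changes kept direction and side of the threshold in 158 cases, passed it where the reported value did not in 15, lost it in 4 and turned in direction in 1. The fall in soma lost its call only on TPM, for piwil2 with log2(TPM + 1) (-1.37, limma, adjusted p = 0.0837, and -1.37 with no filter, 0.375) and log2(TPM + 0.1) (-2.44, 0.0647), and for piwil1 with log2(TPM + 1) and no filter (-2.23, 0.0834). In PGCs between the stages, piwil1 passed with no count filter (-1.91), DESeq2 (-1.86), the 4-library fit (-1.92), log2(TPM + 1) (-2.12), log2(TPM + 0.1) (-2.59) and rescaled TPM (-2.98), and piwil2 with rescaled TPM (-2.11). TPM moved the median of all genes in this comparison to -0.39 with log2(TPM + 1), -0.52 with log2(TPM + 0.1) and -0.67 when rescaled, against 0.36 in edgeR. Less that median, piwil1 was -1.73, -2.07 and -2.31, against -2.27 in edgeR, and piwil2 -0.89, -1.22 and -1.44, against -1.57. At 24 hpf, PGC against soma passed with no count filter for piwil1 (2.16) and piwil2 (3.45) and with DESeq2 for piwil2 (3.41). Why these calls moved was not tested.

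Leaving out 1 library gave log2 fold changes of 1.58 to 3.16 for piwil1 and 2.77 to 4.77 for piwil2 at 24 hpf, -0.00797 to 1.94 and 0.43 to 2.46 at 7 hpf, -2.21 to -1.54 and -1.35 to -1.08 in PGCs between stages, -4.45 to -2.12 and -4.87 to -2.19 in soma, and 0.22 to 2.54 and 0.98 to 3.66 for the interaction. The piwil1 value that turned was PGC against soma at 7 hpf without the second soma library (-0.00797). In PGCs between the stages, piwil1 was at -1.91 to -1.90 without any 1 soma library, and at -2.21 to -1.54 without any 1 PGC library.

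Called pathway genes numbered 1 with RLE factors, 10 with no filter and 8 with DESeq2 at 24 hpf, 8 with DESeq2 at 7 hpf, and 5 with no filter and 3 with DESeq2 for the interaction. Over all genes, RLE factors called 4 higher and 0 lower of 19885 at 24 hpf. No filter called 63 and 40 of 25923 there, and DESeq2 51 and 30 of 34381. At 7 hpf DESeq2 called 1556 and 708. For the interaction the calls over all genes were 364 and 622 with no filter, and 213 and 512 with DESeq2. Leaving out 1 library left a group with a single library, so the counts of called pathway genes in those fits are not given. The piwil1 to piwil2 ratio difference was 0.11 with 1 added to each TPM and -0.42 to 0.31 without 1 library. It turned positive without the first PGC 24 hpf (0.05), first soma 24 hpf (0.15), second PGC 7 hpf (0.18) or second soma 7 hpf library (0.31).

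No label ties libraries of the same number, and the libraries were not treated as pairs. Replicate differences of PGC and soma correlated at 0.31 at 24 hpf and 0.11 at 7 hpf, and those of groups from different stages at -0.03 to 0.09, over 13113 genes. With the replicate number as a block, piwil1 in PGCs between the stages passed (-1.80, edgeR, adjusted p = 0.0334), and the soma values were -3.34 for piwil1 and -3.52 for piwil2.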

Other observations

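Beyond the piRNA pathway, 11 other germline genes were read in the same libraries. All 11 were taken from gene lists of the study with its results known, so their direction between cell types is not independent evidence. At 24 hpf, 1 of 11 was called higher in PGCs and 0 lower, with 9 higher at an unadjusted p under 0.05 (edgeR) and a median log2 fold change of 6.17, or 3.95 when genes with 0 counts in both soma libraries were set at the bound that a floor of 3 counts allows. At 24 hpf 0.0302% of all tested genes were called higher, and the share of all genes at an unadjusted p under 0.05 was not counted. At 7 hpf, 6 of 11 were called higher, where 3.61% of all genes were, and 0 lower. Between the stages 7 of 11 fell in PGCs, where 6.94% of all genes did, and 6 of 11 in soma, where 9.89% did. The 1 gene called at both stages was ca15b, with 50.4 and 24.7 CPM in PGC 24 hpf, against 0.0662 and 0.206 CPM in soma 24 hpf, and 414 and 223 CPM in PGC 7 hpf, against 0.299 and 0.0932 CPM in soma 7 hpf.

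Of these genes, elavl2, buc and ddx43 had counts in both soma libraries at 7 hpf and fell in soma between the stages, to 0 for elavl2 and buc. elavl2, an RNA-binding protein gene, had 70 and 42 counts in PGC 24 hpf, 0 and 0 in soma 24 hpf, 287 and 140 in PGC 7 hpf, and 229 and 66 in soma 7 hpf, and it fell in soma (edgeR, adjusted p = 0.000669). buc, the organiser of germ plasm in the zebrafish egg, had 8 and 22 counts in PGC 24 hpf, 0 and 0 in soma 24 hpf, 297 and 203 in PGC 7 hpf, and 93 and 37 in soma 7 hpf, and it fell in soma (adjusted p = 0.00133) and in PGCs (log2 fold change -4.59, adjusted p = 0.00367). ddx43, a helicase gene, had 495 and 358 counts in PGC 24 hpf, 190 and 129 in soma 24 hpf, 1676 and 708 in PGC 7 hpf, and 2581 and 792 in soma 7 hpf, and it fell in both cell types (-3.64 in soma, adjusted p = 0.000918, and -2.02 in PGCs, adjusted p = 0.0111, edgeR). These 3 were picked from the list after their values were seen. In contrast, golga3, a Golgi protein gene, was higher in PGCs at 7 hpf (2.95, adjusted p = 0.0169) with 15.4 and 48.5 CPM in soma 7 hpf, and it did not pass between the stages in soma (1.07, adjusted p = 0.0809).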
